A study of Mus musculus with 4 samples.

Results

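The cytochrome P450 genes of mouse ear skin were examined on 4 arrays. Members were all genes whose single symbol in the probe-to-gene annotation begins with Cyp and a digit, leaving out Cyp51 and Cyp4f39. This gave 85 of 19938 named genes, each read by 1 probe set. Of these, 25 reached the median of all probe sets on at least 1 array, 21 of them on all 4. The values are log2 levels, and every difference below is a log2 difference unless it is given as a fold.

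Each array held RNA of whole ears of 8-week-old female mice, and each of the 4 groups had 1 array. Traf6f/f mice (f/f here) carry a floxed Traf6 gene, and Traf6EKO mice (EKO here) are its epithelial knockout; the promoter that drives Cre was not named in the labels. Ears were either untreated or given 10 mg a day of a cream holding imiquimod (IMQ), a Toll-like receptor agonist that provokes psoriasis-like inflammation, for 2 days; whether untreated ears received a base cream is not given. The series text states n = 2, with no word on pooling of mice, and offers no second array per group. With 1 array per group no difference between arrays has a replicate error or a p-value, and the number of arrays limits the precision. Where a gene stands out on 1 array, the animal, the array and the condition cannot be told apart.

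Cytochrome P450 enzymes are haem proteins of the endoplasmic reticulum and mitochondria that insert oxygen into small lipophilic molecules. Most of the large CYP2, CYP3 and CYP4 subfamilies are known from liver, where they clear drugs, solvents and fatty acids. In skin, members of the family shape retinoic acid, vitamin D, sterol and arachidonic acid signals and metabolise foreign compounds.

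Array medians lay between 6.52 and 6.57. Traf6 itself did not separate the labels, with 9.51 and 9.30 in f/f skin (untreated, then IMQ) and 9.65 and 9.35 in EKO skin; whole ear holds cells outside the epithelium, and the exons that the probes read were not looked up, so the labels are unchecked by it. The tissue label fitted its markers: all 6 keratinocyte markers (Krt5, Krt14, Krt1, Krt10, Dsg3 and Trp63) lay at 9.65 or above on every array, and the 4 measured liver markers (Alb, Apoa1, Ttr and Fga) lay below the median on every array, at most at 6.27. In bulk skin, fewer cells of a type and less RNA per cell cannot be told apart.

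Upstream sequences are shown for members on which the results turn, each as the 250 bases before the annotated start, read in the direction of the gene, from RefSeq, build GRCm38.p6, which held such a sequence for 62 of the 85 members. The first set holds 4 of the 5 members that were at least 2-fold lower with IMQ in f/f skin: Cyp2e1 (chr7:140763569-140763818, plus strand), Cyp2f2 (chr7:27119705-27119954, plus strand), Cyp27a1 (chr1:74713285-74713534, plus strand) and Cyp2j9 (chr4:96591486-96591735, minus strand). Capitals mark matches, on either strand, to 5 short motifs chosen after the values were seen: the TATA box core (TATAAA), the CCAAT box core, the GC box core (GGGCGG), the core of the xenobiotic response element bound by the aryl hydrocarbon receptor (GCGTG) and the nuclear receptor half-site (AGGTCA). Matches of different motifs were counted separately where they overlapped.
Cyp2e1: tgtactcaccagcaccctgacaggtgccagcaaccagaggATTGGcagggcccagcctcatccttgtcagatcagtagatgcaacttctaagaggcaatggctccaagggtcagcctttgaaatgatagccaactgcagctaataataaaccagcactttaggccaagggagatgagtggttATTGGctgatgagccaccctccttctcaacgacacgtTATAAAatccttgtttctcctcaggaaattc
Cyp2f2: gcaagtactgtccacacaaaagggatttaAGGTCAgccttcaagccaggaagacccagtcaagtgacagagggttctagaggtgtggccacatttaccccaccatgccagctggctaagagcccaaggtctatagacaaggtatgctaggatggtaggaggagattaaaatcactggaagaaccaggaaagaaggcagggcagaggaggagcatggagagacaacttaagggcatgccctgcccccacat
Cyp27a1: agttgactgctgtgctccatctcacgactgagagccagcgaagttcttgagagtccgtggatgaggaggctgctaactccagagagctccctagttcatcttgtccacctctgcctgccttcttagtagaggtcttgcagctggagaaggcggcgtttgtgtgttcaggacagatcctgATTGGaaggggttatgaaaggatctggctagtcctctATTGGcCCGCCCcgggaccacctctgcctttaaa
Cyp2j9: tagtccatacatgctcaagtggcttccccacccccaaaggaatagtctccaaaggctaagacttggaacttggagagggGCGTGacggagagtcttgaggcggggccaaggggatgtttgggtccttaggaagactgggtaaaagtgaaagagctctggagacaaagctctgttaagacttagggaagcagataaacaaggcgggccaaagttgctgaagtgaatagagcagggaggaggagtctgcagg
None of the 5 motifs was shared by all 4 sequences. Cyp2e1 held a TATA box core starting 31 bases before the start and CCAAT cores on the other strand starting 68 and 210 bases before it. Cyp27a1 held CCAAT cores on the other strand starting 34 and 71 bases before the start and a GC box core on the other strand at 28. Cyp2j9 held 1 match, to the xenobiotic response element core, and Cyp2f2 held 1 match, to the nuclear receptor half-site. A match describes letters and is not evidence of binding. Over all 32851 upstream sequences, the shares with a match were 12.4% for the TATA box core, 33.8% for the CCAAT box core, 32.7% for the GC box core, 28.2% for the xenobiotic response element core and 14.0% for the nuclear receptor half-site.

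The second set is a pair of genes of the same subfamily and genomic group, with other CYP2B members between them, whose levels with IMQ differed in opposite directions in both genotypes: Cyp2b10 (chr7:25897408-25897657, plus strand) and Cyp2b19 (chr7:26756892-26757141, plus strand). Capitals mark runs of at least 10 identical bases in their alignment.
Cyp2b10: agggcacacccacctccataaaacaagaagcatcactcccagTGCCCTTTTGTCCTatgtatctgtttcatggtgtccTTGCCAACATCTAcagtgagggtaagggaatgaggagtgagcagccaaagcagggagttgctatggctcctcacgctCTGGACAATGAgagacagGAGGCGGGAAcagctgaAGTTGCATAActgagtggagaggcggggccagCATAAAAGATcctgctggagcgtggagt
Cyp2b19: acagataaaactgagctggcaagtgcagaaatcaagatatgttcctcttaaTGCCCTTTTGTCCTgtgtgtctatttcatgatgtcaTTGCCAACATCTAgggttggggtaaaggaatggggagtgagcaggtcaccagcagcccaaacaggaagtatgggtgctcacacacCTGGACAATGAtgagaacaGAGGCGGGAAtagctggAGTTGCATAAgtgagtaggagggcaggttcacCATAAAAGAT
The alignment held 175 identical bases in 272 columns (64.3%), and 6 runs of at least 10 bases, the longest of 14. Cyp2b10 held the xenobiotic response element core and Cyp2b19 the nuclear receptor half-site.

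**Figure D1:**
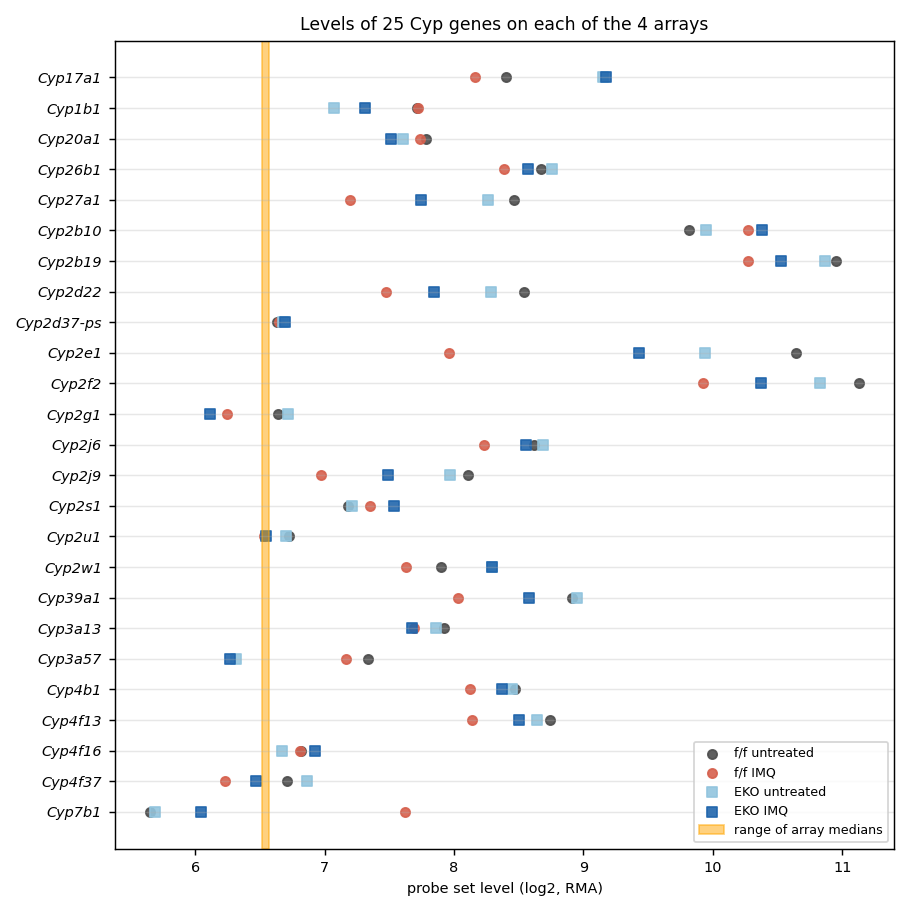
Level of each of the 25 Cyp genes that reached the array median on at least 1 array (x axis, log2 probe set level; y axis, gene). Each point is 1 array: circles are f/f, squares are EKO, and the band spans the 4 array medians; probe sets differ in brightness, so points compare arrays within a gene. Cyp2e1 lies at 7.96 on the f/f IMQ array and at 9.43 or above on the other 3, and Cyp7b1 reaches the band on the f/f IMQ array alone.

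With IMQ in f/f skin, a group of foreign-compound, sterol and fatty acid P450 genes was lower and the oxysterol hydroxylase gene Cyp7b1 was higher. A gene was counted when it differed by at least 2-fold and reached the array median on at least 1 of the arrays compared. Of the 25 members so measured, 5 were counted as lower (20.0%) and 1 as higher (4.0%). Over all 11909 genes the shares were 2.38% lower and 3.52% higher. In EKO skin, 0 of 23 members were counted in either direction, where 0.0856% of all genes were lower and 0.633% higher. The members and these comparisons were chosen with earlier results of these data known, and no test of the share was made.

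Cyp2e1, which oxidises ethanol, acetone and other small molecules, stood at 10.64 and 7.96 in f/f skin (untreated, then IMQ) and 9.94 and 9.43 in EKO skin. The f/f IMQ array was the low one, and the other 3 lay well above it. It was thus 6.40-fold lower with IMQ in f/f and 1.43-fold lower in EKO. Set against f/f, EKO was 1.63-fold lower without IMQ and 2.76-fold higher with it. The difference between the IMQ differences was 2.17, the largest among the 85 members, and by this measure 0.992% of all 11999 genes lay 2-fold or more above 0 and 1.08% as far below it.

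Cyp2f2, known for activating naphthalene in mouse airways, stood at 11.13 and 9.92 in f/f skin (untreated, then IMQ) and 10.83 and 10.38 in EKO skin. Both IMQ arrays lay below both untreated arrays, by 2.31-fold in f/f and 1.37-fold in EKO. Cyp2d22, of a subfamily known for drug oxidation, stood at 8.54, 7.47, 8.29 and 7.85 in the same order, 2.09-fold lower with IMQ in f/f and 1.36-fold lower in EKO. Cyp2j9, of a subfamily that oxidises arachidonic acid, stood at 8.11, 6.97, 7.97 and 7.49, lower by 2.19-fold in f/f and 1.39-fold in EKO. In these 3 genes the order of the arrays was the same, from f/f untreated at the top to f/f IMQ at the bottom, and all 4 arrays lay above the array median.

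Among the genes of sterol metabolism, the mitochondrial sterol hydroxylase gene Cyp27a1, which also acts on vitamin D, stood at 8.47 and 7.19 in f/f skin (untreated, then IMQ) and 8.26 and 7.74 in EKO skin. It was 2.41-fold lower with IMQ in f/f and 1.43-fold lower in EKO. Cyp7b1, whose enzyme hydroxylates oxysterols such as the product of CYP27A1, stood at 5.65, 7.62, 5.69 and 6.05. It was the only member counted as higher with IMQ in f/f, by 3.92-fold, and in EKO it was 1.28-fold higher. With IMQ, EKO lay 2.98-fold under f/f. Its other 3 levels lay below the array median, so it entered the count through the array on which it was high. Cyp39a1, another oxysterol hydroxylase gene, stood at 8.91, 8.03, 8.95 and 8.58, a difference of -0.89 in f/f and -0.37 in EKO. The cholesterol hydroxylase genes Cyp46a1 (6.19 to 6.36) and Cyp7a1 (3.70 to 3.94) and the bile acid enzyme gene Cyp8b1 (5.51 to 5.82) did not reach the median on any array. Of the 6 oxysterol and bile acid genes, 3 reached it in f/f with IMQ or without. Of these, 1 was counted as higher (Cyp7b1) and 1 as lower (Cyp27a1), beside 3.52% and 2.38% of all genes.

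As a share of the f/f difference, the EKO difference was 0.42 for Cyp2j9, 0.41 for Cyp2d22, 0.41 for Cyp27a1, 0.38 for Cyp2f2, 0.19 for Cyp2e1 and 0.18 for Cyp7b1. These genes were chosen by their f/f difference, so the shares are a description. The IMQ comparisons of f/f and EKO share no array. Among the 23 members whose mean level reached the array medians' mean, 20 had differences of the same sign in both genotypes. Of 11492 genes chosen in the same way, 9140 did. The smaller difference was the one in EKO in 19 of the 23 members (82.6%), against 78.8% of the 11492 genes. Across these members Pearson's r between the IMQ differences was 0.82 (Spearman's rho 0.91), and across the 11492 genes it was 0.79 (rho 0.78); genes of 1 array are not independent. The smaller IMQ difference in EKO was therefore about as frequent in Cyp genes as in all genes.

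**Figure D2:**
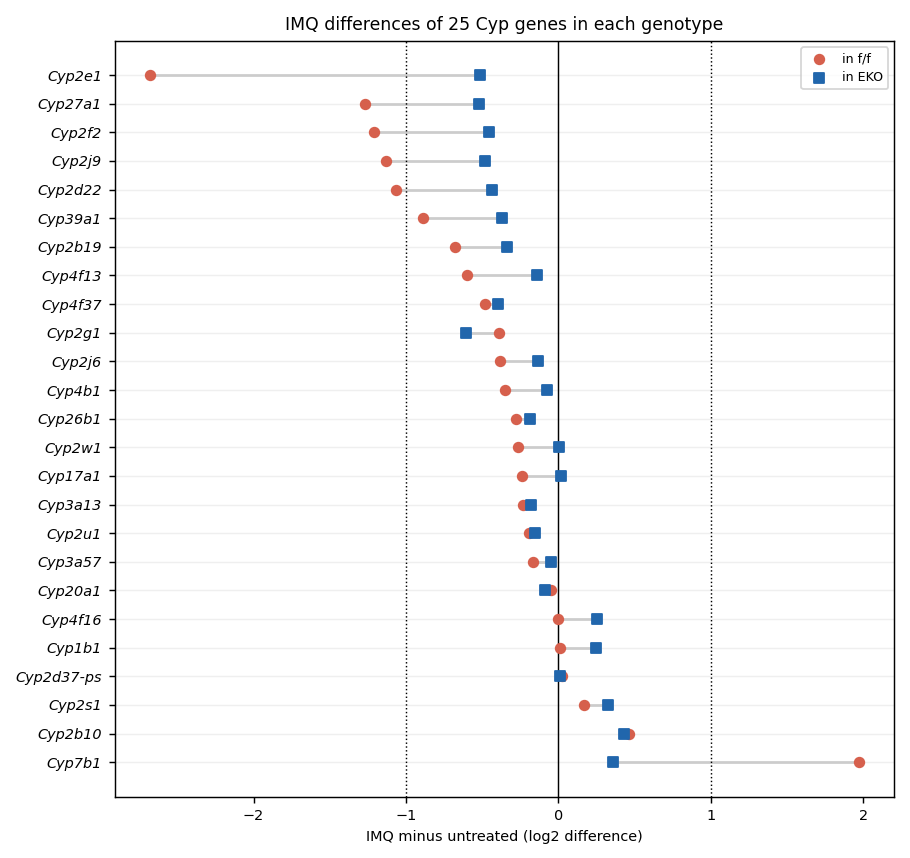
IMQ minus untreated (x axis, log2 difference) in f/f skin (circles) and EKO skin (squares) for the 25 Cyp genes that reached the array median, ordered by the f/f value; each point is a difference between 1 array and 1 array, and dotted lines mark 2-fold. The f/f points run from -2.68 for Cyp2e1 to 1.97 for Cyp7b1, and all EKO points lie between the dotted lines.

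Members with bright probe sets were mostly lower with IMQ in f/f. Of the 23, 19 were lower and 4 higher, with a median of -0.28, where 50.6% of all genes chosen in the same way were lower (median -0.01). In EKO, 16 were lower and 7 higher (median -0.14), where 53.8% of all genes chosen in the same way were lower (median -0.02). Among the 62 members below that level, 30 were lower and 32 higher in f/f (median 0.01), where 51.6% of all genes below it were lower. Over all 85 members the median was -0.02 in f/f and 0.00 in EKO. The direction was thus that of the brighter members.

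P450 genes of epidermal fatty acid metabolism differed by less than 2-fold, apart from Cyp2j9. Of the 10 measured on this list, 8 reached the median, against 60.2% of all named genes. In f/f 7 of the 10 were lower with IMQ, against 51.0% of all genes. Cyp4f15 and Cyp4f18, below the median on every array, were among those higher. Cyp2b19, an arachidonic acid epoxygenase of the upper epidermis, stood at 10.95 and 10.27 in f/f skin (untreated, then IMQ) and 10.86 and 10.53 in EKO skin. Both IMQ arrays were below both untreated arrays, with differences of -0.68 in f/f and -0.34 in EKO. Its paralogue Cyp2b10, known in liver as a target of the nuclear receptor CAR, stood at 9.81, 10.28, 9.95 and 10.38. Both IMQ arrays were above both untreated arrays, by 0.46 in f/f and 0.43 in EKO, so that the genotypes differed by -0.03 in their IMQ difference. These are the genes whose upstream sequences are set side by side above. CYP2B genes are close paralogues, and how far a probe set reads its relatives was not tested.

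The other members of this group were nearer to their untreated levels. Cyp4f13, of a subfamily that hydroxylates fatty acids and leukotrienes, differed by -0.60 in f/f and -0.14 in EKO, Cyp2j6 by -0.39 and -0.13, and the fatty acid hydroxylase gene Cyp4b1 by -0.35 and -0.08. Cyp2u1, a fatty acid hydroxylase gene just inside the median, differed by -0.19 and -0.15, and Cyp4f37, outside the list, by -0.48 and -0.40. Cyp2s1, known from skin for retinoid and foreign-compound oxidation, was higher with IMQ in both genotypes, standing at 7.18, 7.35, 7.21 and 7.54. Cyp2g1, known from olfactory tissue, differed by -0.39 in f/f and -0.61 in EKO; it stood at 6.64, 6.25, 6.72 and 6.11, below the median on both IMQ arrays.

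The CYP1 genes are the classic targets of the aryl hydrocarbon receptor (AHR). Cyp1b1, which oxidises oestrogens and polycyclic compounds, stood at 7.72 and 7.72 in f/f skin (untreated, then IMQ) and 7.07 and 7.31 in EKO skin. Both EKO arrays were below both f/f arrays, by -0.65 without IMQ and -0.41 with it, and the IMQ differences were 0.01 in f/f and 0.24 in EKO. Cyp1a1, the most inducible AHR target, stayed below the median at 5.47, 6.03, 5.51 and 5.67, and Cyp1a2 at 4.46, 4.25, 4.26 and 4.11. Ahr itself stood at 9.92, 9.21, 9.92 and 9.48, lower with IMQ by -0.71 in f/f and -0.44 in EKO. The AHR target Tiparp stood at 8.25, 9.04, 8.36 and 8.27, high on the f/f IMQ array alone, and the AHR repressor gene Ahrr was below the median on all 4 arrays. AHR pathway genes thus did not share 1 direction.

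Of the retinoic acid hydroxylase genes, whose enzymes clear retinoic acid, Cyp26b1 alone reached the median, at 8.67 and 8.39 in f/f skin (untreated, then IMQ) and 8.76 and 8.57 in EKO skin. It differed by -0.28 with IMQ in f/f and -0.18 in EKO. Cyp26a1 (5.42 to 5.95) and Cyp26c1 (6.27 to 6.48) stayed below it. Of 11 measured genes that make, convert, store, carry or bind retinoids, 9 reached the median. With IMQ in f/f skin, 2 of these were above and 1 below the untreated level by 2-fold or more, beside 3.52% and 2.38% of all genes. Others, among them Aldh1a3 (0.29), Stra6 (0.17) and Aldh1a2 (-0.09, below the median throughout), chosen after their values were seen, differed little in f/f. The retinal dehydrogenase gene Aldh1a1 stood at 9.14, 7.52, 8.71 and 8.03, lower by -1.62 in f/f and -0.67 in EKO. The retinol dehydrogenase gene Dhrs9 was higher by 1.76 and 0.41, and Crabp2, which carries retinoic acid to its receptors, by 1.52 and 0.50.

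Of 4 listed vitamin D hydroxylase genes, 3 were measured, and Cyp24a1 was not among the members. Cyp27a1 is described above, and Cyp2r1 (5.73 to 5.86) and Cyp27b1 (5.46 to 5.73) stayed below the median on every array. The vitamin D receptor gene Vdr stood at 9.38 and 9.54 in f/f skin (untreated, then IMQ) and 9.35 and 9.60 in EKO skin, and its partner Rxra at 9.55, 9.59, 9.75 and 9.85. Neither differed by more than 0.25 with IMQ.

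Of 5 measured steroid hormone synthesis genes, Cyp17a1 alone reached the median. Its enzyme is the hydroxylase and lyase that leads to androgens. It stood at 8.40 and 8.16 in f/f skin (untreated, then IMQ) and 9.15 and 9.17 in EKO skin. Both EKO arrays were above both f/f arrays, by 1.69-fold without IMQ and 2.01-fold with it, while the IMQ differences were -0.24 in f/f and 0.02 in EKO. Cyp11a1 (5.89 to 6.35), which starts steroid synthesis, and Cyp11b1, Cyp11b2 and Cyp21a1 stayed below the median. Of 3 measured steroidogenic cell markers, Star and Hsd3b1 lay below the median on every array and Nr5a1 reached it on the f/f IMQ array alone, at 6.55. Probe sets differ in brightness, so these levels do not rank the genes.

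Between the genotypes without IMQ, 1 of 24 members was counted as lower in EKO (background 0.292%) and 0 as higher (0.0601%). This was Cyp3a57, of a subfamily known for drug and steroid oxidation, at 7.34 and 7.17 in f/f skin (untreated, then IMQ) and 6.32 and 6.27 in EKO skin. Both f/f arrays were above the median and both EKO arrays below it, 2.03-fold apart without IMQ and 1.87-fold with it. It was not counted after any of 3 other scalings between arrays, each of which gave -0.99 in place of -1.02. CYP3A genes are near-identical in places, and a probe set may read more than its own gene. Cyp2j12, below the median on every array, showed a like split at 6.31, 6.23, 5.46 and 5.65.

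With IMQ, 2 of 23 members were counted as higher in EKO than in f/f (background 0.402%), namely Cyp2e1 and Cyp17a1, and Cyp7b1 as lower (background 0.786%). Cyp17a1 lay at the edge of the count, at 1.01, and median centring of the arrays moved it to 1.00, just under the threshold. Cyp2w1, an enzyme without a settled physiological substrate, stood at 7.90, 7.63, 8.29 and 8.29, higher in EKO by 0.40 without IMQ and 0.67 with it. Of the 23 bright members, 14 were lower in EKO without IMQ (median -0.06) and 19 were higher in EKO with IMQ (median 0.25). Of 11492 genes chosen in the same way, 45.7% were lower in EKO without IMQ (median 0.02). With IMQ, 5727 of them were higher in EKO (median -0.001). The genotype comparison with IMQ uses the f/f IMQ array, which also enters the IMQ comparison in f/f, and the genotype comparison without IMQ does not use it.

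**Figure D3:**
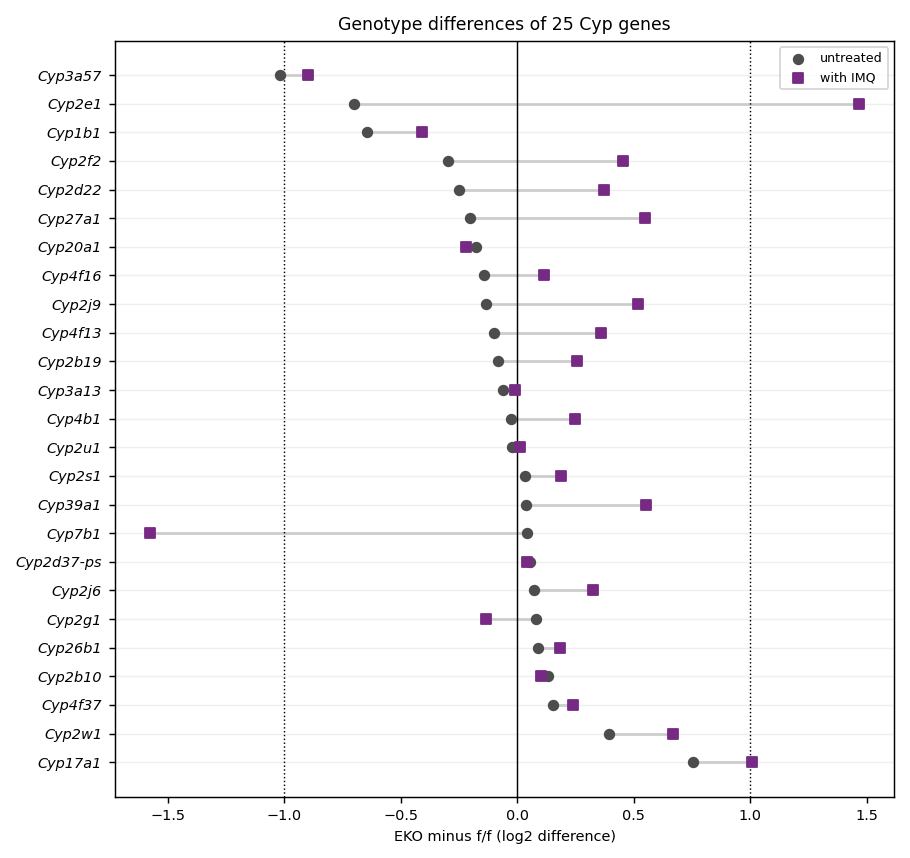
EKO minus f/f (x axis, log2 difference) without IMQ (circles) and with IMQ (squares) for the 25 Cyp genes that reached the array median, ordered by the untreated value; each point is a difference between 1 array and 1 array, and dotted lines mark 2-fold. Cyp2e1 moves from -0.70 to 1.47 and Cyp7b1 from 0.04 to -1.58, while Cyp3a57 and Cyp1b1 are negative, and Cyp17a1 and Cyp2w1 positive, in both.

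Marker levels of the cell types in whole ear also differed between the arrays. Of the 6 keratinocyte markers, 5 were higher with IMQ in both genotypes, between -0.10 and 1.40 over all 6 in f/f and between -0.16 and 0.41 in EKO. The 3 measured hair shaft markers (Krt31, Krt34 and Krt35) were lower with IMQ in f/f, between -0.89 and -0.20, and higher in EKO, between 0.37 and 0.81. All 6 adipocyte markers (Adipoq, Plin1, Lep, Cidec, Fabp4 and Retn) were lower with IMQ, between -2.02 and -1.19 in f/f and between -1.09 and -0.33 in EKO. They were also lower in EKO without IMQ, between -0.71 and -0.35, and higher in EKO with IMQ, between 0.25 and 0.68. Their summed level (log2 of the sum of linear levels) was 13.48 and 11.94 in f/f skin (untreated, then IMQ) and 12.91 and 12.44 in EKO skin, the order in which Cyp2e1, Cyp2f2, Cyp27a1, Cyp2d22 and Cyp2j9 also stood. The 4 skeletal muscle markers (Actn3, Ckm, Myh4 and Acta1) followed the same order, with summed levels of 13.75, 12.89, 13.59 and 13.33. The 5 neutrophil markers (S100a8, S100a9, Cxcr2, Csf3r and Trem1) were higher with IMQ by 1.45 to 5.01 in f/f and by 0.15 to 1.37 in EKO. Like Cyp7b1, each was highest on the f/f IMQ array, as were the keratinocyte marker Dsg3 and the genes Tiparp, Dhrs9 and Ppard. Cxcr2 also stood at 7.11 in untreated EKO skin and 8.16 in EKO skin with IMQ, where Cyp7b1 stood at 5.69 and 6.05. The 6 fibroblast markers lay between -0.45 and 0.11 with IMQ in f/f and between -0.31 and 0.03 in EKO, and the 5 macrophage markers between -1.14 and 0.19 and between -0.36 and 0.51. All 8 sebaceous markers were lower in EKO than in f/f without IMQ, between -1.92 and -0.06, and 7 of 8 with IMQ. All 6 fibroblast markers were also lower in EKO without IMQ, between -0.30 and -0.07, and 5 of 6 with it. Cyp3a57 and Cyp1b1 were lower in EKO both without and with IMQ. Without IMQ, all macrophage, muscle and hair shaft markers were lower in EKO too, and all 6 keratinocyte markers were higher. The part of any of these cell types in the P450 differences was not tested.

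Electron donors, membrane partners and receptors around the P450s were read from lists. Of 10 listed partners, 7 were measured, and the P450 reductase gene Por was not among them, so nothing is shown for it. Of the 7, 6 reached the median and 0 differed by 2-fold in any comparison. At most 3.52% of all genes were counted in either direction of any 1 comparison, so 0 of 6 is no result about these partners. Cytochrome b5 (Cyb5a) stood at 10.87 and 10.49 in f/f skin (untreated, then IMQ) and 10.80 and 10.61 in EKO skin. The membrane haem protein gene Pgrmc2 differed by -0.31 with IMQ in f/f and -0.05 in EKO. Of 23 measured regulators, 15 reached the median in f/f, and 1 of them, the fatty acid receptor gene Ppard, was counted as higher with IMQ (3.52% of all genes were), at 8.26, 9.48, 8.63 and 8.91. Pparg, the adipocyte member of that group, stood at 9.72, 8.76, 9.24 and 8.83, and Ppara at 7.52, 6.65, 7.51 and 7.12, both lower with IMQ in both genotypes. The retinoid X receptor gene Rxrg, above the median on the f/f untreated array alone, stood at 6.69, 5.95, 6.52 and 6.28. The nuclear receptor genes Nr1i2 and Nr1i3, which drive liver P450s, lay below the median on every array. Among epoxide hydrolases, which open the epoxides that P450s form, Ephx2 was lower with IMQ by -1.10 in f/f and -0.40 in EKO and Ephx1 by -0.97 and -0.31, while the epidermal gene Ephx3 was higher by 1.11 and 0.65.

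Members were also grouped by their place in the genome. Grouping members by RefSeq positions (build GRCm38.p6), with at most 1 Mb to the next member, gave 7 groups of at least 5. In the group of CYP2A, 2B, 2F, 2G, 2S and 2T genes, 5 of 11 reached the array median: Cyp2b10, Cyp2b19, Cyp2f2, Cyp2g1 and Cyp2s1. In the CYP2C group 0 of 12 did, with mean levels from 3.10 to 5.95. The CYP4A, 4B and 4X group had 1 of 7 (Cyp4b1), the CYP2J group 2 of 6, the CYP2D group 2 of 10, the CYP4F group 3 of 7 and the CYP3A group 1 of 5. Where a group held several members that reached the median, their IMQ differences in f/f were not alike, from -1.21 for Cyp2f2 to 0.46 for Cyp2b10. In all, 29.4% of the members reached the median on at least 1 array, against 60.2% of all named genes.

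**Figure D4:**
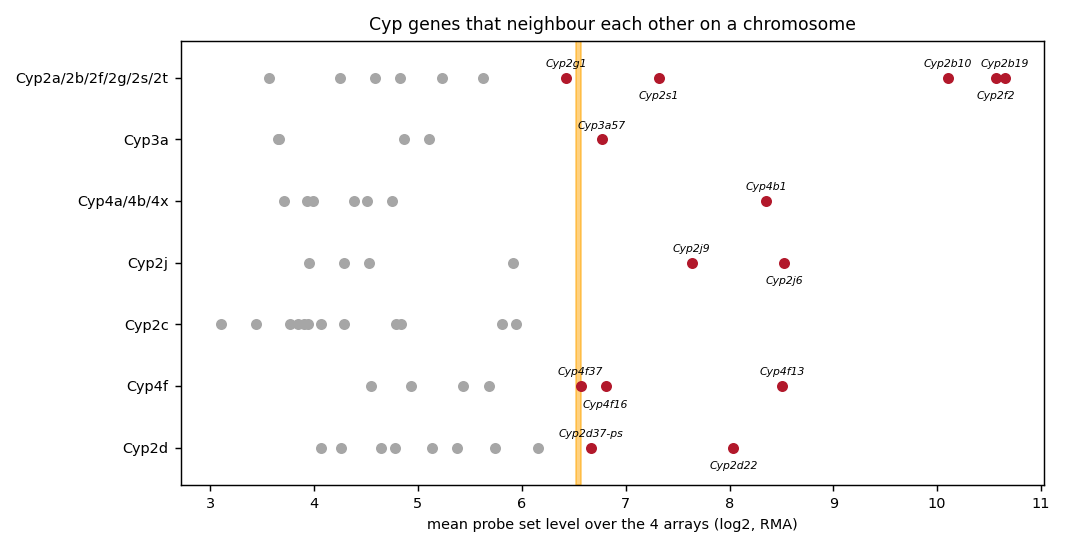
Mean level over the 4 arrays (x axis, log2 probe set level) of the Cyp genes in the 7 genomic groups with at least 5 members (y axis); red and labelled points reached the array median on at least 1 array, grey points did not, and the band spans the 4 array medians. In the CYP2C group no gene reached the band; brightness also depends on each probe set, so the axis does not rank transcript amounts.

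The 60 members that never reached the array median varied little. For 56 of them the range over the 4 arrays was under 0.5, and the exceptions were Cyp2j12 (0.85), Cyp1a1 (0.56), Cyp2d11 (0.54) and Cyp26a1 (0.54). Dim genes in general varied as little. Of the 62 members with a mean level below the median, 95.2% differed by less than 0.5 with IMQ in f/f, against 94.9% of all such genes. In EKO the shares were 98.4% and 98.8%. The small ranges are thus no result about Cyp genes. Just outside the line lay Cyp26c1, whose best level was 0.04 under its array's median, and Cyp46a1, 0.16 under. Just inside lay Cyp2u1, 0.16 above on its best array, and the pseudogene Cyp2d37-ps, 0.17 above at 6.63, 6.65, 6.68 and 6.69. At such levels the absence of a difference is not shown. All 5 motifs were counted upstream of the 44 members with a sequence that stayed below the median and the 18 that reached it. A member was counted when any of its upstream sequences held a match, whereas the shares of all are of single sequences. The units thus differ where a gene has several sequences. The TATA box core was found in 21 of 44 and 2 of 18 (12.4% of all upstream sequences), the nuclear receptor half-site in 12 and 3 (14.0%) and the CCAAT box core in 20 and 7 (33.8%). The GC box core was found in 7 of 44 and 8 of 18 (32.7%) and the xenobiotic response element core in 7 and 6 (28.2%). No test was made; paralogues share ancestry, so these sequences are not independent.

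Among members near their untreated level in every comparison were Cyp20a1, a P450 of unknown function (7.78, 7.73, 7.60 and 7.51), Cyp3a13 (7.92, 7.69, 7.86 and 7.68) and Cyp4f16 (6.81, 6.81, 6.67 and 6.92). The largest range over the 4 arrays among these 3 was 0.27, in Cyp20a1.

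Averaged effects, of IMQ over both genotypes and of genotype over both treatments, came from limma on the 11999 genes that reached the median on any array, 2 arrays against 2. With 1 residual degree of freedom, the error of this fit holds the dependence of IMQ on genotype as well as noise, and it does not measure a spread between like animals. By limma's adjusted p-value 0 of 11999 genes (0.0% in either direction) and 0 of 25 members were called for either effect. At an unadjusted p under 0.05, limma found 3060 genes (25.5%) and 10 of 25 members for IMQ, and 375 genes (3.13%) and 4 members for genotype. Those 4 were Cyp17a1 (averaged effect 0.88 ± 0.12, SE), Cyp1b1 (-0.53 ± 0.11), Cyp2w1 (0.53 ± 0.11) and Cyp3a57 (-0.96 ± 0.10), each with an adjusted p of 0.999 in limma. For IMQ the smallest adjusted p of a member was 0.169 in limma, shared by Cyp2b10 (0.45 ± 0.10), Cyp27a1 (-0.90 ± 0.21), Cyp2d22 (-0.75 ± 0.18), Cyp2f2 (-0.83 ± 0.21) and Cyp2j9 (-0.81 ± 0.19), among others, with both IMQ arrays on the same side of both untreated arrays in each. Cyp2e1 had an averaged IMQ effect of -1.60 ± 0.55 (adjusted p = 0.190 in limma).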

How the data were processed

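The array was the Affymetrix Mouse Gene 1.0 ST, per the series' design text, and titles gave each array's group. The authors deposited log2 values per probe set; RMA made them, per the submitters' processing notes, which name no version. RMA equalises the arrays, so a shift of most genes would be hidden. Of 35556 probe sets, 21789 had 1 gene symbol in the platform annotation and were used; 7 listed for several genes including a Cyp gene were left out. The probe set with the highest mean stood for a gene. All 85 members were found in RefSeq GRCm38.p6 by Entrez identifier, with 0 symbols differing.

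Log2 differences were computed for 5 comparisons and counted at 2-fold with the level at or above the array median of all probe sets on at least 1 array compared. Genes named by rule were members counted, the brightest 10, members just inside or outside the median, and role list members that reached it. The rule also took up to 5 regulators and partners at least 1.5-fold apart, and Ahr, Vdr, Rxra and Traf6. Cell type markers came from lists. All other genes named were chosen after their values were seen. Among them were Cyb5a, Pgrmc2, the retinoid and epoxide genes, Cyp2w1, Cyp4f37, Cyp20a1, Cyp3a13, Ahrr, Nr1i2 and Nr1i3. Members, lists and comparisons were chosen with earlier results of these data known. limma 3.58.1 (R 4.3.3; intensity trend, Benjamini-Hochberg) fitted averaged effects. It was tested on simulated data of 11999 genes, with each IMQ change equal in both genotypes. For the IMQ effect it recovered 2% of 50 genes changed 2-fold, 62% of 4-fold, 70% of 8-fold and 94% of 16-fold. Of 11799 unchanged genes it called 1. Recovery of changes unequal between the genotypes, as many here were, was not tested. The simulated noise took the residual spreads of the fit, shuffled over the genes, so any relation of spread to level was not kept. Those spreads hold the dependence of IMQ on genotype as well as noise. Recovery on the real data may therefore differ. Python 3.11.15, numpy 2.4.6, pandas 2.3.3 and matplotlib 3.10.9 did the rest. Upstream sequences were aligned end to end with free end gaps (match 2, mismatch -1, gap opening -5, extension -1).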

Additional observations from a re-analysis of the deposited data

Results flagged for a closer look

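For 14 of the 25 members that reached the array median, a contrast ran in opposite directions in the 2 arms of the design. By the same rule 60.4% of all 11999 genes did so, against 56.0% of the members, so the count is no result about Cyp genes. With 1 array per arm this was not tested, and small values can change sign by noise alone. The genotype difference was of opposite sign without and with IMQ in 12 genes (48.0%, against 51.6% of all genes); the difference between the IMQ differences (EKO minus f/f) was 2.17 for Cyp2e1, 0.75 for Cyp2f2, 0.75 for Cyp27a1, 0.65 for Cyp2j9, 0.63 for Cyp2d22, 0.46 for Cyp4f13, 0.34 for Cyp2b19, 0.27 for Cyp4b1, 0.25 for Cyp4f16, 0.036 for Cyp2u1, -0.22 for Cyp2g1 and -1.62 for Cyp7b1. The IMQ difference was of opposite sign in f/f and EKO in 3 genes (12.0%, against 20.5% of all genes), namely Cyp4f16, Cyp17a1 (0.25) and Cyp2w1 (0.27).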

How the results depend on the processing

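Each member has 1 probe set, so the probe set rule could change none of its values, and floors change no single gene's difference; both are left out where they could not act. Under other scalings, floors and the lower fold threshold, 50 of 60 recomputed counts of Cyp genes stayed within 1.5 times, and under other scalings and floors 21 of 25 medians moved by at most 0.1. Cyp genes lower in untreated EKO went from 1 to 0 after median centring, quantile normalization and cyclic loess, and those higher in EKO with IMQ from 2 to 1 after median centring. Without a floor, the members' median was -0.0206 for IMQ in f/f, 0.0029 for IMQ in EKO, -0.0119 for EKO against f/f with IMQ and 0.0383 for the difference of the IMQ differences, over all 85 genes. At 1.5-fold, 8 members were lower with IMQ in f/f (9.07% of all genes) and 1 in EKO (0.787%), 1 was higher (0.61%) and 3 were lower (0.97%) in untreated EKO, 2 were lower in EKO with IMQ (2.38%), and 5 were higher by the difference of the IMQ differences (3.43%). In limma 0 members were called under any setting tried, among them no intensity trend. Of 375 gene values under the 3 other scalings, 371 stayed on their side of 2-fold, 4 fell below it (Cyp3a57 in 3 settings, Cyp17a1 in 1) and 0 reversed; Cyp2e1 with IMQ in f/f ranged from -2.73 to -2.62. No paired analysis was possible because each group holds 1 array. Signal below the array median limits Cyp7b1 and the 60 dim members.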
